A study of Astyanax mexicanus with 36 samples.

Results

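fshr and lhcgr encode the receptors for follicle-stimulating hormone and luteinizing hormone, the 2 pituitary gonadotropins. They were taken by gene symbol and are 2 of the 27420 genes in the deposited count table (fshr, ENSAMXG00000011613, and lhcgr, ENSAMXG00000034302, each carried by 1 gene). Both were followed in the Mexican tetra, Astyanax mexicanus, over oocytes of 4 size categories named by the labels as 40um, 40_100um, 100_300um and 300um. At each size there were 3 libraries of the Pachón cave population, 3 of the Molino cave population and 3 of Surface fish, 36 libraries in all. The labels give every fish as untreated, of genotype WT and adult, with an age near 520 days and the right ovary as the source. What the 40um and 300um categories bound is not given there. Whether replicates are separate fish is not given either, and p-values then cover the library-to-library spread alone, which may be technical.

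Both receptors couple mainly through stimulatory G proteins to cyclic AMP and, in an ovarian follicle, sit on the somatic cells that surround the oocyte. In fish, the FSH receptor is best known from granulosa and theca cells of growing follicles, where it supports steroid synthesis and growth. The LH receptor is best known from the late stages, when LH triggers maturation of the oocyte and ovulation. The oocyte itself is not known as the main site of either receptor, and a size-sorted sample can carry follicle cells with it.

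Libraries held 2992119 to 9345334 reads assigned to genes, so that 1 read was worth 0.102 to 0.439 CPM (a gene's reads relative to all reads of its library, rescaled between libraries by the trimmed mean of M-values). Oocyte markers were abundant everywhere, with a summed level of 1703 to 15382 CPM and none of the 10 markers was at 0 in any library. Markers of other cells were highest at 40um: immune markers summed to 420 to 5702 CPM there, against 4.24 to 338 CPM at the 3 larger sizes. In 3 libraries, Surface 100_300um replicate 1, Surface 300um replicate 2 and Molino 300um replicate 3, stroma markers were the highest of their group, at 257, 472 and 492 CPM, and an earlier analysis had set these apart. Library numbers in the labels fall into 3 number series, 1 for 40um, 1 for both middle sizes and 1 for 300um. Any size step that involves 40um or 300um therefore cannot be told apart from a change of series, while the step between the 2 middle sizes lies within 1 series. In bulk samples, fewer follicle cells and less receptor RNA per cell cannot be told apart either.

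fshr was highest at 40um and low in the larger sizes. At 40_100um its group means were 0.227 CPM in Molino, 0.501 CPM in Surface and 3.33 CPM in Pachón. At 100_300um and 300um they lay between 2.22 and 7.40 CPM. Relative to 40um, the level at 40_100um was 0.0342 in Pachón, 0.0418 in Surface and 0.00678 in Molino. The steps into and out of 40_100um did not differ between populations past the threshold in the main fit. At 40um it had 66.3, 131 and 96.1 CPM in Pachón, 26.9, 35.1 and 54.8 CPM in Molino, and 5.05, 11.1 and 22.4 CPM in Surface. The 3 populations did not overlap at that size, Pachón standing above Molino and Molino above Surface. Among all genes tested at 40um, 12.1% stood higher without overlap in Pachón than in Surface, 7.64% in Molino than in Surface and 13.6% in Pachón than in Molino. At 40_100um fshr had 3.02, 3.73 and 3.25 CPM in Pachón, 0, 0 and 0.68 CPM in Molino, and 0.26, 1.1 and 0.14 CPM in Surface. Molino had 5 reads and Surface 12 reads over 3 libraries each, and the count of 0 in 2 Molino libraries allows up to 0.490 and 0.454 CPM, for counting error only. Pachón, with 62 reads, lay above Surface and above Molino without overlap, as 24.5% and 26.9% of genes did at this size.

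In 100_300um oocytes fshr had 4.27, 6.98 and 3.08 CPM in Pachón, 2.50, 3.58 and 6.19 CPM in Molino, and 8.50, 7.26 and 6.45 CPM in Surface. Here Surface was the highest population, and its libraries overlapped those of Pachón but not those of Molino. Among all genes, 15.6% were lower in Molino than in Surface without overlap. At 300um the values were 4.36, 7.09 and 4.60 CPM in Pachón, 5.57, 7.32 and 9.17 CPM in Molino, and 2.64, 1.84 and 2.20 CPM in Surface. Every cave library of this size lay above every Surface library, as for 22.2% of genes in Pachón and 16.6% in Molino.

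lhcgr was also highest at 40um, was low at both middle sizes and was high again at 300um. At 40um it had 143, 453 and 531 CPM in Pachón, 59.6, 149 and 404 CPM in Molino, and 32.2, 94.0 and 153 CPM in Surface. The populations had the same order as for fshr but overlapped, and replicate 1 was the lowest library in each of the 3. At 40_100um lhcgr had 6.04, 8.53 and 3.90 CPM in Pachón, 0.16, 2.42 and 1.90 CPM in Molino, and 0.13, 1.83 and 1.16 CPM in Surface. The Pachón libraries all lay above 3 CPM and above those of Molino and Surface, as for 26.9% and 24.5% of genes at this size.

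At 100_300um lhcgr had 4.95, 4.30 and 1.54 CPM in Pachón, 3.19, 4.90 and 3.15 CPM in Molino, and 3.03, 1.99 and 3.59 CPM in Surface, and all 3 populations overlapped. At 300um it had 8.46, 26.8 and 17.9 CPM in Pachón, 27.2, 50.0 and 69.3 CPM in Molino, and 27.8, 13.8 and 36.1 CPM in Surface. All 9 of these libraries stood above all 9 libraries of 100_300um oocytes, and at 300um Pachón lay below Molino, as 27.7% of genes did without overlap, while both cave populations overlapped Surface.

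**Figure D1:**
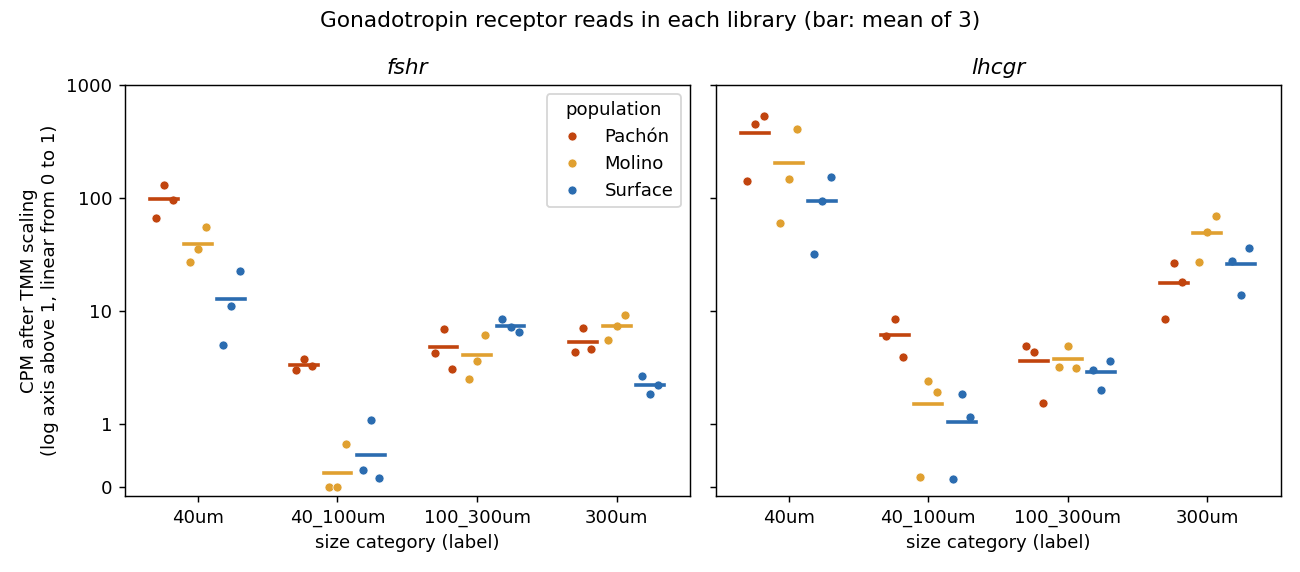
Level of fshr (left) and lhcgr (right) in each of the 36 libraries, in CPM on an axis that is logarithmic above 1 and linear below, by size category. Points are libraries, with Pachón, Molino and Surface from left to right at each size, and bars are means of 3; fshr stays low at 300um, while lhcgr there averaged 30.8 ± 18.9 CPM (SD, n = 9).

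Ordered over the 12 groups, fshr averaged 97.9 ± 32.5 CPM in Pachón 40um, 39.0 ± 14.3 CPM in Molino 40um and 12.9 ± 8.82 CPM in Surface 40um (SD, n = 3 each). The lowest groups were Surface 300um with 2.22 ± 0.402 CPM, Surface 40_100um with 0.501 ± 0.518 CPM and Molino 40_100um with 0.227 ± 0.393 CPM. Between these, from 7.40 down to 3.33 CPM, stood the 100_300um groups of all populations, the 300um groups of both cave populations and Pachón 40_100um. Each of these 6 groups overlapped the group above it, and Pachón 40_100um did not overlap Surface 300um below it. For lhcgr each group overlapped the next one down, from 376 ± 206 CPM in Pachón 40um through 48.8 ± 21.1 CPM in Molino 300um to 1.04 ± 0.853 CPM in Surface 40_100um. The coefficients of variation of lhcgr in Pachón, Molino and Surface were 54.7%, 87.6% and 65.0% at 40um and 37.7%, 79.1% and 82.2% at 40_100um. They were 50.3%, 26.7% and 28.2% at 100_300um and 51.7%, 43.2% and 43.4% at 300um, in the same order.

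The first size step asked how far the receptors follow the change between 40um and 40_100um oocytes. Averaged over populations, fshr was lower at 40_100um by a log2 change of -5.55 (SE 0.37) and lhcgr by -6.47 (SE 0.47), with adjusted p-values of 3.99e-13 and 1.63e-12 in edgeR's quasi-likelihood test. This step changed 73.5% of all genes tested, 43.8% of all genes toward lower and 29.8% toward higher, and 15.4% of genes were lower with no overlap between the 9 libraries of each size, as both receptors were. The median change of all genes was -0.32. Both receptors thus belonged to the many genes that were lower, at 166th place for fshr and 348th for lhcgr of 18259 by p. Within populations fshr fell by 4.87 on the log2 scale in Pachón, by 7.21 in Molino and by 4.58 in Surface, each passing the threshold of 0.05 on the adjusted p as 33.1%, 36.1% and 35.7% of genes did downward in those populations. The fshr step did not differ between populations past the threshold (adjusted p = 0.121, F test on both cave steps against the Surface step, passed by 11% of genes). With replicate numbers as a block, not the main fit here, that F test gave fshr an adjusted p of 0.0475. The block raised its calls to 3427 genes, against 2013 genes. lhcgr fell by 5.93, 7.04 and 6.45 in Pachón, Molino and Surface, and the adjusted p of the difference was 0.700. These sizes depend on single libraries although every call held. Without Molino 40_100um replicate 3, which holds all 5 fshr reads of that group, the averaged fshr change was -6.70 and the Molino change -11.00, a fitted value against a group at 0 that is no bound. The Molino change was -6.58 without 40_100um replicate 2, and in Surface fshr changed by -5.82 without 40_100um replicate 2 and -3.74 without 40um replicate 3. Leaving out the same Surface libraries gave -7.16 and -5.74 for lhcgr, and the Molino change of lhcgr was -6.07 without 40um replicate 3.

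Markers of follicle cells moved in the same step. All 4 granulosa markers tested fell, with a median log2 change of -4.00. The gene foxl2b, of the FOXL2 family of granulosa transcription factors, fell by 5.46 and amh, which encodes anti-Müllerian hormone, fell by 4.48. The gonadal growth factor gsdf of fish fell by 3.52 and the orphan nuclear receptor nr5a2 fell by 1.33. Of 5 theca markers 4 fell, as did all 11 immune, all 10 stroma and 7 of 8 endothelium markers tested, with medians of -5.07, -8.68, -3.96 and -3.09. Of 10 oocyte markers 4 rose, gdf9 by 2.19 and bmp15 by 2.02 among them, and 1 fell, beside 29.8% and 43.8% of all genes. The part of these cell types in the receptor change was not tested. A ratio within each library sets the receptors beside the granulosa markers, and it does not depend on the scaling between libraries.

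At this step the log2 ratio of fshr to the summed reads of the 5 granulosa markers measured averaged -4.13 ± 1.62 at 40_100um, against -1.16 ± 1.18 at 40um (SD, n = 9 each). That difference of -2.97 had an exact p of 5e-04 with sizes permuted within populations, and 9e-04 when adjusted over 9 such tests. For lhcgr the same ratio averaged -2.69 ± 1.61 at 40_100um, against 1.06 ± 0.961 at 40um, a difference of -3.75 with an exact p of 0.00025, the smallest that 8000 arrangements can give (adjusted p = 0.000563). Both receptors were thus lower at 40_100um relative to the summed granulosa markers as well. In Molino 40_100um replicates 1 and 2, with 0 fshr reads, the fshr ratio depends on the 0.5 added to each count. Against single markers this varied. Averaged over populations, fshr changed by -5.55 and foxl2b by -5.46, while nr5a2 changed by -1.33, and in Pachón by 0.07 (SE 0.52). lhcgr changed by -6.47 on average and by -6.45 in Surface, more than each marker tested. In Pachón it changed by -5.93 against -6.13 for foxl2b, and in Molino by -7.04 against -7.36 for amh. In each population a granulosa marker fell further than fshr, and the other markers tested changed less. These were foxl2b in Pachón (-6.13 against -4.87) and Surface (-5.25 against -4.58), and amh in Molino (-7.36 against -7.21). The 5 markers were not equal in weight: nr5a2 gave 45.7% of their reads over all libraries and 70.2% at 300um, and foxl2a had 34 reads in all.

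The second step, between the 2 middle sizes, separated the receptors. fshr rose by a log2 change of 2.76 (SE 0.37, adjusted p = 3.29e-06) averaged over populations, a step at which 33% of genes were called, 24.6% of all genes as higher and 8.37% as lower, and at which the median gene moved by 0.19. Of these calls 74.6% were higher with this scaling, 59.8% with DESeq2's size factors and 94.3% with library totals, while fshr stayed 2.57 above the median gene under all 3. For lhcgr the change was 0.66 (SE 0.46, 95% interval -0.23 to 1.56) and did not pass the threshold (adjusted p = 0.272). fshr rose by 3.97 in Molino (SE 0.72, adjusted p = 0.000729) and by 3.79 in Surface (SE 0.63, adjusted p = 0.00545), while in Pachón it differed by 0.52 (SE 0.52, adjusted p = 0.617). In Molino 12.9% of genes and in Surface 3.9% of genes were called higher at this step. In both populations the fshr libraries of 100_300um oocytes all stood above those of 40_100um, as for 28.6% of genes in Molino and 17% in Surface. The Surface call was lost without replicate 1 or replicate 3 of Surface 40_100um (adjusted p = 0.0705 and 0.0503). Without Molino 40_100um replicate 3, which leaves that group at 0, the averaged change was 3.99 and the Molino change 7.74, again no bound, and without replicate 2 the Molino change was 3.33. The Surface change was 5.05 without 40_100um replicate 2.

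Whether fshr took this step differently in the populations was tested directly. edgeR's F test placed fshr 28th of 18259 genes by p, with an adjusted p of 0.206. It called 0 genes (0%), with 8.86% of genes under an unadjusted 0.05, while DESeq2's likelihood ratio test called 94 genes, fshr among them (adjusted p = 0.00846). fshr also passed the F test with replicate numbers as a block, which was not the main fit at this step. lhcgr differed by -0.77 in Pachón, 1.30 in Molino and 1.45 in Surface, with adjusted p-values between 0.288 and 0.577.

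Averaged over populations, the granulosa markers amh, foxl2b and gsdf rose here, by 2.61, 1.75 and 1.18. nr5a2 did not pass (0.63, adjusted p = 0.0993). Within Pachón none of these markers passed, and gsdf differed by -0.64. Averaged again, the theca markers star, cyp17a1 and nr5a1a rose by 2.88, 2.46 and 1.49, while cyp17a2 and nr5a1b did not pass. Of 10 stroma markers 7 rose, as did 4 of 8 endothelium and 2 of 11 immune markers, while 5 of 10 oocyte markers fell, beside 24.6% of all genes called higher and 8.37% called lower. Their part in the fshr change was not tested. Relative to granulosa markers, the fshr log2 ratio averaged -2.15 ± 0.586 at 100_300um, against -4.13 ± 1.62 at 40_100um (exact p = 0.004, adjusted p = 0.006). By population it was -2.33 ± 1.01 at 100_300um, against -2.47 ± 0.310 at 40_100um, in Pachón, -2.11 ± 0.514 against -5.30 ± 1.36 in Molino, and -2.03 ± 0.0966 against -4.61 ± 1.42 in Surface (SD, n = 3 each). The sizes overlapped in Pachón and did not overlap in Molino or Surface. Molino 40_100um replicates 1 and 2 had 0 fshr reads, so their ratios of -5.93 and -6.23 depend on the 0.5 added. Against single markers the rise varied. Averaged over populations, fshr rose by 2.76 and amh by 2.61. In Molino fshr rose by 3.97 against 5.37 for amh, and in Surface by 3.79, more than each marker tested there. The lhcgr ratio differed by -0.10 (exact p = 0.875). The log2 ratio of lhcgr to fshr reads itself averaged -0.64 ± 0.809 at 100_300um, against 1.43 ± 1.62 at 40_100um, a difference of -2.07 with an exact p of 0.00025 (adjusted p = 0.000563). lhcgr reads outnumbered fshr reads in 3 of the 9 libraries at 100_300um and in 8 of the 9 at 40_100um. Among the latter, Molino replicates 1 and 2 had 0 fshr reads, so their log2 ratios of 1.58 and 5.04 depend on the 0.5 added. With each library left out in turn, the difference was -2.33 to -1.68. These read ratios are not ratios of transcripts, since they are not divided by gene length, but their change between sizes does not depend on it.

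At the last step, between 100_300um and 300um, lhcgr passed the test and fshr did not. lhcgr rose by a log2 change of 3.05 (SE 0.41, fold 8.26, adjusted p = 0.000501), and of 18259 genes it had the smallest p at this step. Few genes moved: 0.4% were called, 0.197% higher and 0.203% lower, and 8 genes (0.0438%) were higher with no overlap between the 9 libraries of each size. The call held with each of the 18 libraries left out in turn, with changes of 2.90 to 3.18 and a highest adjusted p of 0.00279. fshr differed by -0.24 (SE 0.30, 95% interval -0.82 to 0.34) and did not pass.

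Within single populations the lhcgr change was 2.30 in Pachón (SE 0.69, adjusted p = 1), 3.69 in Molino (SE 0.71, adjusted p = 0.0557) and 3.15 in Surface (SE 0.71, adjusted p = 0.165). In each population the 300um libraries did not overlap those of 100_300um, as for 8.4% of genes in Pachón, 4.09% in Molino and 2.68% in Surface. In these single-population tests edgeR called 0 genes in Pachón (0%), 1 in Molino (0.00548%) and 0 in Surface (0%). At an unadjusted 0.05 the shares were 3.54%, 2.54% and 4.08% in that order, and DESeq2 called 18, 37 and 36 genes. Libraries with the same number in the 2 sizes deviated together, so the fit with replicate numbers as a block is given beside these values. It gave 2.17 in Pachón (adjusted p = 0.323), 3.61 in Molino (adjusted p = 0.00271) and 3.17 in Surface (adjusted p = 0.00809), and it raised the calls at the averaged step to 195 genes, against 73 genes without the block. fshr differed by 0.16 in Pachón, 0.84 in Molino and -1.72 in Surface (SE 0.54, adjusted p = 0.521). Neither receptor's step differed between populations past the threshold (both adjusted p = 1), though fshr stood 14th of 18259 genes by p in that F test. edgeR called 0 genes for such a difference (0%), with 1.28% of genes under an unadjusted 0.05, and DESeq2 called 0.

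Of the granulosa markers, 0 of 4 passed at this step in edgeR or DESeq2 (2 at an unadjusted 0.05), and their median change was -0.21. These 2, amh and gsdf, differed by -1.10 and -0.92, while foxl2b and nr5a2 differed by 0.77 and 0.51. The granulosa markers summed to 16.5 to 36.6 CPM at 300um, against 15.4 to 34.9 CPM at 100_300um. Nor did any of 5 theca, 10 stroma, 8 endothelium or 11 immune markers pass with either tool, with medians of -0.01, 0.79, 0.64 and 0.75. At an unadjusted 0.05 there were 1 theca, 5 stroma, 0 endothelium and 0 immune markers, beside 6.38% of all genes. Stroma markers summed to 55.9 to 492 CPM at 300um, against 40.4 to 257 CPM at 100_300um. Without the 3 libraries named above the lhcgr change was 3.09 (adjusted p = 0.00123 in edgeR). The libraries kept had stroma sums of up to 242 CPM in Molino 100_300um and 231 CPM in Pachón 300um. The part of these cell types in the lhcgr change was not tested. The log2 ratio of lhcgr to granulosa markers averaged 0.20 ± 0.918 at 300um, against -2.79 ± 0.947 at 100_300um, a difference of 2.99 with an exact p of 0.00025 (adjusted p = 0.000563). For fshr that ratio differed by -0.20 (exact p = 0.530), and by 0.27 when nr5a2 was left out of the markers.

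The log2 ratio of lhcgr to fshr averaged 2.55 ± 0.898 at 300um, against -0.64 ± 0.809 at 100_300um, and was above 0 in all 9 libraries of 300um oocytes. The difference of 3.19 had an exact p of 0.00025 (adjusted p = 0.000563), and with signs flipped over the 9 pairs of equal number p was 0.00391 by an exact test. At 300um the ratio was 0.95, 1.91 and 1.94 in Pachón, 2.27, 2.76 and 2.91 in Molino, and 3.37, 2.87 and 3.99 in Surface. Pachón was the lowest without overlap, and Molino overlapped Surface. With 3 libraries against 3 the smallest two-sided exact p is 0.1, which Pachón against Surface (difference -1.81) and Pachón against Molino (difference -1.05) both reached. Pachón against Surface at 40um (-1.05) and Pachón against Molino at 40_100um (-1.87) reached it too. Adjusted over 12 population tests it was 0.3. Between 40um and 40_100um the ratio differed by -0.78 (exact p = 0.210, adjusted p = 0.270).

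**Figure D2:**
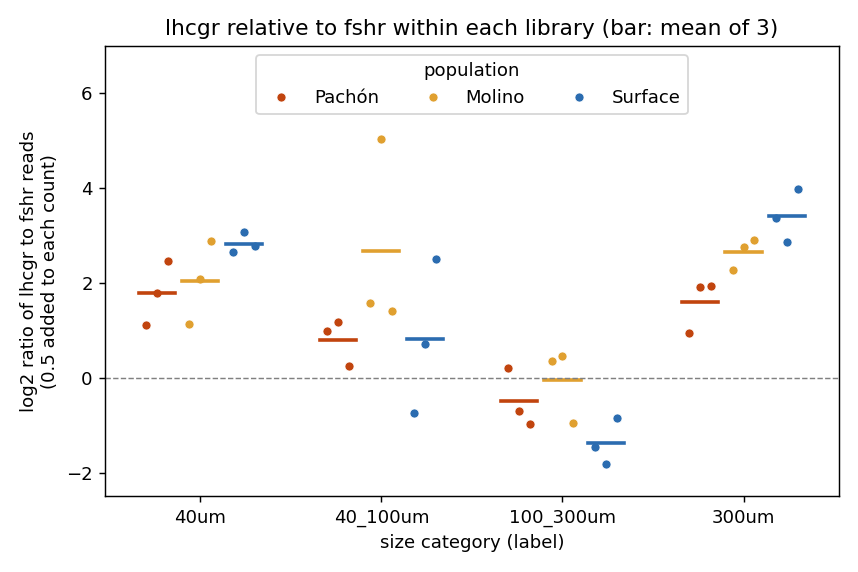
Log2 ratio of lhcgr reads to fshr reads within each library by size category, with 0.5 added to each count and a dashed line at equal reads. Points are libraries, with Pachón, Molino and Surface from left to right, and bars are means of 3; the 9 libraries averaged 2.22 at 40um, 1.43 at 40_100um, -0.64 at 100_300um and 2.55 at 300um.

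**Figure D3:**
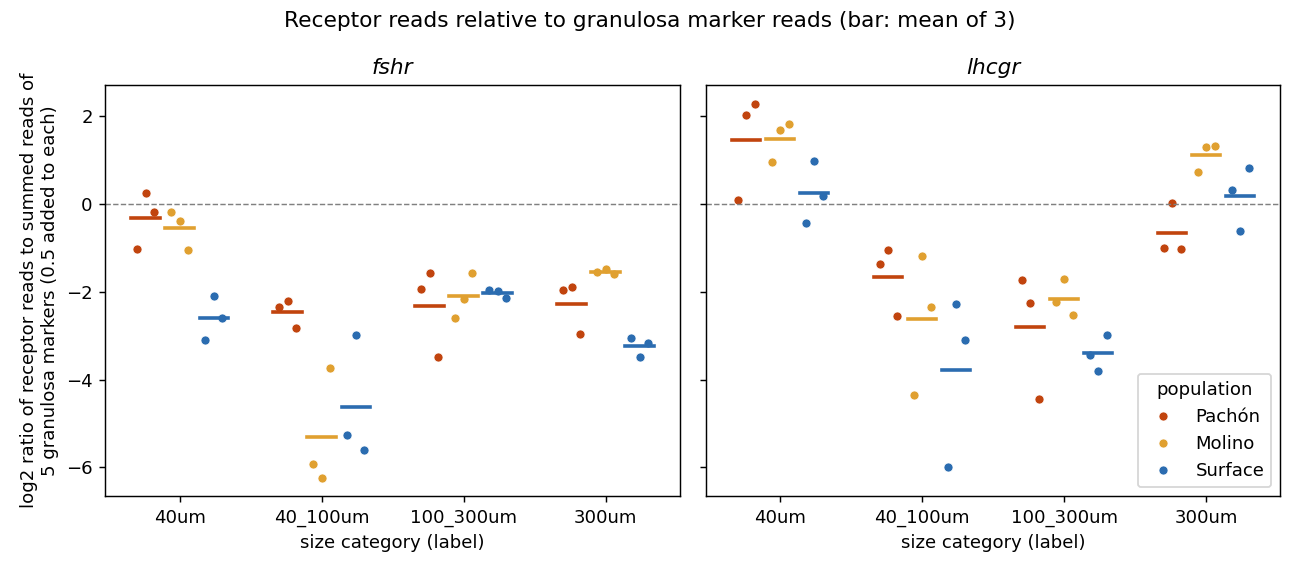
Log2 ratio of fshr (left) and lhcgr (right) reads to the summed reads of 5 granulosa markers in each library, by size category. Points are libraries, with Pachón, Molino and Surface from left to right, and bars are means of 3; at 300um the fshr ratio averaged -2.35 and the lhcgr ratio 0.20 over 9 libraries.

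Between populations, fshr passed the test in 5 of 12 comparisons and lhcgr in 1 of 12. Single comparisons called from 0.521% to 37.6% of all genes, and the pairs of populations at a size share libraries. At 40um Pachón had a log2 difference of 2.96 from Surface (SE 0.59, fold 7.79, adjusted p = 0.0323), where 2.88% of genes were called, 2.02% as higher. Of these calls 70.1% were higher with this scaling and 52.6% with library totals. The call was lost without Pachón replicate 2 or 3 (adjusted p = 0.117 and 0.0682) or Surface replicate 1 or 2 (adjusted p = 0.0556 and 0.0513), and the difference was 3.68 without Surface replicate 3. Molino was 1.49 above Surface (SE 0.56) and Pachón 1.47 above Molino (SE 0.56), without passing (adjusted p = 0.337 and 0.196), where 0.521% and 3.18% of genes were called. Pachón and Molino share the Surface libraries as their comparison. lhcgr differed by 2.02 in Pachón against Surface (SE 0.79, adjusted p = 0.192) and by 1.00 in Molino against Surface (SE 0.77, adjusted p = 0.681).

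Among follicle cell markers at 40um, the theca sums stood higher in Pachón than in Surface without overlap, and the granulosa sums overlapped. Granulosa markers summed to 110 to 135 CPM in Pachón, 30.9 to 115 CPM in Molino and 43.8 to 136 CPM in Surface, and 0 of 4 passed in edgeR in either cave population against Surface (1 in Pachón and 0 in Molino at an unadjusted 0.05). DESeq2 called amh higher in Pachón and 0 of the 4 in Molino. Theca markers summed to 204 to 687 CPM in Pachón, 73.4 to 400 CPM in Molino and 22.3 to 97.0 CPM in Surface. Among them cyp17a2, a steroid hydroxylase, passed in edgeR in Pachón (2.93, adjusted p = 0.0318) and in Molino (3.36, adjusted p = 0.0392) against Surface. The other theca markers tested, cyp17a1, nr5a1a and star, did not pass. They differed by 3.12, 2.83 and 2.83 in Pachón, beside 2.96 for fshr. In Molino they differed by 2.24, 0.94 and 1.77, beside 1.49 for fshr. Their part in the receptor differences was not tested. Relative to granulosa markers, fshr at 40um had a log2 ratio of -0.33 ± 0.642 in Pachón, -0.55 ± 0.454 in Molino and -2.60 ± 0.501 in Surface (SD, n = 3 each), with no overlap between Surface and either cave population. For lhcgr the ratio overlapped, at 0.08 to 2.27 in Pachón, 0.94 to 1.81 in Molino and -0.44 to 0.97 in Surface. Ratios to granulosa markers were not tested between populations.

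At 40_100um both receptors were higher in Pachón than in Surface. fshr was 2.59 above Surface (SE 0.85, adjusted p = 0.0313) and lhcgr 2.47 above Surface (SE 0.78, adjusted p = 0.0268), in a comparison that called 33.2% of genes, 16.8% higher. Both rest on few reads: fshr lost the call without any 1 of the 3 Pachón libraries or without Surface replicate 1 or 3 (adjusted p = 0.0698 to 0.0978), and lhcgr without Pachón replicate 1 or 2 or Surface replicate 1 or 3 (adjusted p = 0.0568 to 0.0880). Without Surface replicate 2 the differences were 3.79 for fshr and 3.13 for lhcgr. At this size fshr passed the filter on read counts only through Pachón, the population called higher here and against Molino. Per library it had 20 to 21 reads in Pachón, 0 to 5 in Molino and 1 to 9 in Surface. Without the filter the fshr calls against Surface and Molino held. fshr was also higher in Pachón than in Molino, by 3.63 (SE 0.95, adjusted p = 0.00895, where 37.6% of genes were called, 19.4% as higher), and passed with each library left out in turn. The difference was 3.11 to 3.76 without any 1 library other than Molino replicate 3, and the 7.46 without that library, with Molino at 0, is no bound. For lhcgr the Pachón difference from Molino was 1.95 (SE 0.76, adjusted p = 0.0572). Molino differed from Surface by -1.04 in fshr (SE 1.08, adjusted p = 0.50) and by 0.52 in lhcgr (SE 0.81, adjusted p = 0.669), where 29.5% of genes were called.

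Summed markers of follicle and immune cells stood higher in Pachón at this size as well. Granulosa markers summed to 15.8 to 23.4 CPM in Pachón, 4.90 to 9.93 CPM in Molino and 9.13 to 12.5 CPM in Surface, theca markers to 8.61 to 11.02 CPM in Pachón, 0.979 to 8.30 CPM in Molino and 2.24 to 3.29 CPM in Surface, and immune markers to 65.0 to 85.9 CPM in Pachón, 4.24 to 8.30 CPM in Molino and 15.4 to 21.8 CPM in Surface. No Pachón library overlapped a Molino or Surface library in any of these sums. Oocyte markers stood higher in Pachón too, at 7736 to 10822 CPM, against 6225 to 6535 CPM in Molino and 5447 to 6442 CPM in Surface. For stroma, endothelium and blood markers the Pachón sums overlapped those of Molino. Against Surface, the stroma and blood sums were higher in Pachón without overlap. Stroma markers summed to 69.0 to 113 CPM in Pachón and 19.0 to 37.1 CPM in Surface, and blood markers to 7.11 to 16.5 CPM and 3.90 to 6.94 CPM. The endothelium sums overlapped, at 24.5 to 36.1 CPM in Pachón and 19.5 to 24.6 CPM in Surface. Every library held granulosa reads, with 0 to 2 of the 5 markers at 0, and the part of these cells in the receptor differences was not tested.

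At 100_300um neither receptor differed past the threshold in any pair of populations. fshr was -0.68 in Pachón against Surface (SE 0.41, adjusted p = 0.272, 19.9% of genes called) and -0.92 in Molino against Surface (SE 0.41, adjusted p = 0.170, 14.6% of genes called). lhcgr differed by 0.27 in Pachón and 0.32 in Molino against Surface, with intervals of -0.69 to 1.23 and -0.64 to 1.27. Pachón and Molino differed by 0.25 in fshr and -0.04 in lhcgr, where 25% of genes were called. Granulosa markers summed to 16.5 to 34.9 CPM in Pachón, 15.4 to 18.4 CPM in Molino and 28.6 to 33.4 CPM in Surface. Among them gsdf was lower than in Surface in Pachón (-2.35, adjusted p = 0.000598) and Molino (-1.67, adjusted p = 0.00432). There 9.86% and 7.95% of genes were called lower, and amh, foxl2b and nr5a2 did not pass. Their part in the receptor differences was not tested.

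At 300um fshr was higher in both cave populations, whose values again share the Surface libraries. It was 1.26 above Surface in Pachón (SE 0.35, fold 2.39, adjusted p = 0.0201) and 1.70 above Surface in Molino (SE 0.35, fold 3.26, adjusted p = 0.00775). In Pachón 32.4% of genes were called, 15.9% as higher, and in Molino 16.5%, 7.35% as higher. Of the Pachón calls 49.2% were higher with this scaling and 36.9% with library totals. The Molino call held with each library left out, with differences of 1.54 to 1.86, and was 1.39 (adjusted p = 0.0490) without the 3 libraries with raised markers. The Pachón call was lost without Pachón replicate 2 (adjusted p = 0.0769), in the fit of all 36 libraries (adjusted p = 0.118) and without 3 libraries in which markers of other cells were raised (adjusted p = 0.0513). Pachón and Molino differed by -0.45 in fshr (SE 0.33, adjusted p = 0.321, where 34.5% of genes were called).

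lhcgr at 300um did not pass in any pair. It was -0.56 in Pachón against Surface (95% interval -1.54 to 0.42), 0.89 in Molino against Surface (-0.07 to 1.85) and -1.45 in Pachón against Molino (-2.43 to -0.48). The last of these had no overlap between libraries, as 27.7% of genes did in that direction, and an adjusted p of 0.0503. Without the 3 libraries with raised markers the Molino difference from Surface was 0.25 and the Pachón difference from Molino -1.13 (adjusted p = 0.0925). Pachón against Molino passed without Molino replicate 1 (adjusted p = 0.0360) or Pachón replicate 2 (adjusted p = 0.0403).

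Of the granulosa markers, 0 of 3 passed at 300um in either cave population against Surface in edgeR or DESeq2 (0 at an unadjusted 0.05), and the summed level was 17.2 to 36.6 CPM in Pachón, 16.5 to 28.0 CPM in Molino and 20.4 to 22.4 CPM in Surface. The log2 ratio of fshr to these markers was -2.28 ± 0.604 in Pachón, -1.55 ± 0.065 in Molino and -3.23 ± 0.219 in Surface (SD, n = 3 each), with Surface below both cave populations without overlap. This ratio was not tested between populations. Theca markers summed to 12.03 to 33.4 CPM in Pachón, 23.7 to 53.9 CPM in Molino and 13.0 to 23.1 CPM in Surface, and cyp17a1 among them was 1.69 higher in Molino than in Surface (adjusted p = 0.0211). Immune markers summed to 48.3 to 60.6 CPM in Pachón, 16.9 to 60.3 CPM in Molino and 26.3 to 338 CPM in Surface.

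**Figure D4:**
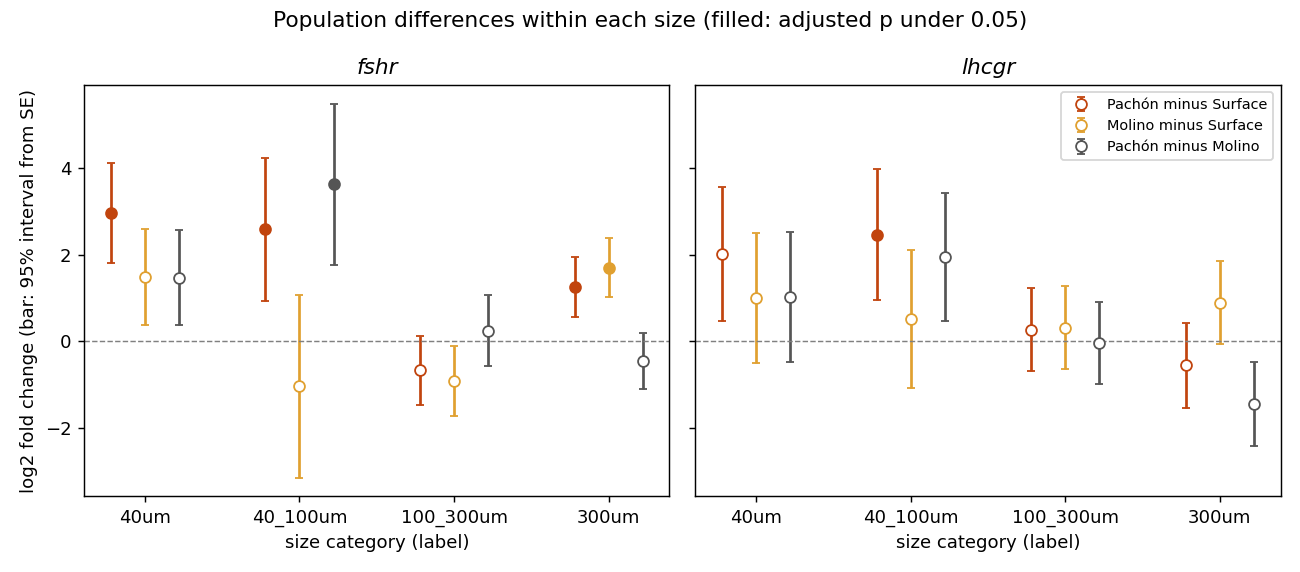
Log2 fold change between populations at each size for fshr (left) and lhcgr (right), as Pachón minus Surface, Molino minus Surface and Pachón minus Molino. Bars are 95% intervals from the standard error and filled points passed an adjusted p of 0.05: 5 of the 12 fshr points are filled, and 1 of the 12 lhcgr points. The comparisons called from 0.521% to 37.6% of all genes.

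The hormones of these receptors are made in the pituitary, and their subunits were nearly without reads. fshb and lhb, the beta subunits of FSH and LH, had 12 and 14 reads over all 36 libraries, and cga, the shared alpha subunit, had 24. tshr, the thyrotropin receptor and closest relative of the gonadotropin receptors, had another course. At 40um it had 3.35, 2.20 and 1.13 CPM in Pachón, 9.42, 6.27 and 4.57 CPM in Molino, and 5.53, 2.11 and 4.72 CPM in Surface. tshr rose by 1.43 at 40_100um (SE 0.33, adjusted p = 0.000289), the step at which both gonadotropin receptors fell, and did not pass at the 2 later steps. At 40_100um it was lower in Pachón than in Surface (log2 difference -1.50, adjusted p = 0.00932) and than in Molino (-1.33, adjusted p = 0.0148). There 16.4% and 18.2% of genes were called lower. At 100_300um tshr was lower in Pachón than in Molino (-1.82, adjusted p = 0.0191), where 11.5% of genes were called lower. By group mean, Pachón was below both other populations at every size, and its other differences from them did not pass. Its libraries overlapped those of Surface at 40um, 100_300um and 300um.

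Downstream of the receptors, 30 genes of the cyclic AMP route were tested, from G protein subunits and adenylyl cyclases to phosphodiesterases, protein kinase A and CREB factors. At 40_100um against 40um 21 fell and 5 rose, with a median change of -1.20 against -0.32 for all genes, of which 43.8% were called lower and 29.8% higher. At the next step 9 of the 30 rose, near the 24.6% of all genes called higher. RAPGEF3, a cyclic AMP-activated exchange factor, fell by 5.76 and then rose by 1.63, and PDE3B, a phosphodiesterase, rose by 1.28 at the second step. At the last step, where lhcgr rose, 0 of the 30 passed in edgeR or DESeq2 and their median was -0.01. At an unadjusted 0.05 there were 4, beside 6.38% of all genes.

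Steroid synthesis, the best known output of both receptors, was represented by 17 tested genes. In the first step 12 fell and 2 rose (median -4.99), beside 43.8% and 29.8% of all genes, with cyp19a1a, the ovarian aromatase, falling by 6.29 and hsd3b2 by 5.87. At 100_300um 6 were higher (median 1.35), beside 24.6% of all genes, among them hsd17b1, which reduces estrone to estradiol in mammals, by 3.38 and star, which carries cholesterol into mitochondria, by 2.88. At 300um hsd17b3, which makes testosterone in mammals, rose by 2.75 (adjusted p = 0.0108), hsd17b1 fell by 2.22 (adjusted p = 0.0332), and 15 did not pass, at a step where 0.4% of all genes were called.

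For the other lists the shares of all genes were the same, 43.8% lower and 29.8% higher in the first step, 24.6% higher in the second and 0.4% in the last. Among 14 steroid receptors 9 fell and 2 rose in the first step and 7 rose in the second, with esr1, an estrogen receptor, at 2.80. In the last step 0 of the 14 passed in edgeR or DESeq2 (2 at an unadjusted 0.05, beside 6.38% of all genes). Of 21 follicle peptides and their receptors, 17 fell and 3 rose in the first step and 14 rose in the second. In the last step igf3, a gonadal insulin-like growth factor of fish, rose by 1.70, while fstl3, a binding protein of activins, fell by 2.53 and inhbb, an activin and inhibin beta subunit, by 1.99. Of 14 ovulation genes 13 fell and 1 rose in the first step, 6 rose in the second, and PLAT, the tissue plasminogen activator, fell by 2.47 in the last. amh stands in both the granulosa and the peptide list, and star, cyp17a1 and nr5a1a stand among both theca and steroid genes.

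Among these lists, the genes that passed in Pachón against Surface at 40um beside fshr included inhbb (3.86), PDE3A (3.48) and igf1ra, an IGF receptor (3.37). At 40_100um they included inhbb (3.96), igf3 (3.59), esr1 (3.51) and cyp17a1, which makes androgen precursors (2.96). In Molino against Surface at 300um fstb, a follistatin, was 5.99 higher, cyp17a1 1.69, esr2b, an estrogen receptor, 1.42 and inhbaa, an activin beta subunit, 1.22. fstb was also 2.54 higher in Pachón than in Surface at 300um. Of all genes, 2.02% at 40um and 16.8% at 40_100um were called higher in Pachón against Surface. At 300um 7.35% were called higher in Molino and 15.9% in Pachón against Surface. The genes named are examples, and the lists were not tested against these shares.

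Among the 5 genes whose log2 CPM followed fshr most closely over the 36 libraries were slc7a5, an amino acid transporter (Pearson r 0.966), timp2a, an inhibitor of metalloproteinases (0.964), esr1 (0.961) and PTPN14, a tyrosine phosphatase (0.959). slc7a5 averaged 113 ± 119 CPM at 40um, 2.06 ± 2.29 CPM at 40_100um, 8.54 ± 5.24 CPM at 100_300um and 5.37 ± 2.42 CPM at 300um (SD, n = 9 each). The 5 for lhcgr were ak4, an adenylate kinase (0.969), slc8a1a, a sodium and calcium exchanger (0.961), SERINC3 (0.959), slc5a6b, a vitamin transporter (0.957), and CNKSR2, a signalling scaffold (0.957). ak4 averaged 536 ± 454 CPM at 40um, 9.72 ± 12.5 CPM at 40_100um, 14.1 ± 6.11 CPM at 100_300um and 45.7 ± 22.6 CPM at 300um.

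fshr and lhcgr had an r of 0.844 with each other, which made lhcgr 562nd in likeness to fshr of the genes compared. These correlations describe libraries that share the large difference between 40um and the rest. Over the 27 libraries of the larger sizes, slc7a5 (0.935) and esr1 (0.933) were again among the 5 closest to fshr, and SLC16A5, a monocarboxylate transporter (0.926), and ak4 (0.922) among those closest to lhcgr. There the r between the receptors was 0.608, and lhcgr stood 1383rd in likeness to fshr.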

How the data were processed

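Total RNA was depleted of ribosomal RNA, made into directional libraries with varying input and cycles per the labels' protocols, and sequenced in bulk. The deposited table holds integer read counts per Ensembl gene made by the authors; STAR 2.7.10b and RSEM are named per the submitters' processing notes, which name no genome build (not given in the sources used here). Unassigned reads, on average 43.1% of a library, were left out. They averaged 63.6% at 40um, 32.3% at 40_100um, 35.3% at 100_300um and 41.0% at 300um. At 40um the assigned share was 27.1% to 37.2% in Pachón, 29.3% to 43.7% in Molino and 33.0% to 51.8% in Surface. A deposited CPM table was not used. No sequences are shown.

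Counts were scaled with TMM after filterByExpr (minimum count 10, minimum total 15) and compared by the robust quasi-likelihood test of edgeR 4.0.16 in R 4.3.3, with Benjamini-Hochberg adjustment over all genes of a fit and a threshold of 0.05. Populations were compared in fits of the 9 libraries of a size (15917, 14377, 15494 and 15214 genes, sizes rising), and sizes in a fit of all 36 (18259 genes). Both receptors passed every filter. Standard errors are the absolute log2 change divided by the root of F. Within-library ratios, with 0.5 added to each count, were compared with two-sided exact permutation tests, sizes permuted within populations. Alternatives were DESeq2 1.42.0 (its Wald test, or its likelihood ratio test for differences between populations), DESeq2 size factors, library totals, no filter, other sets of libraries, replicate blocks, 1 added to the counts, each marker left out and each library left out. The scripts were tested on simulated data.

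Replicate numbers come from the titles. Same-numbered libraries of 300um and 100_300um deviated together in 9 of 9 pairs (correlation of deviations 0.267 to 0.580), so that step is also given with the block. No 2 replicates agreed within sampling noise (chi-square per degree of freedom 2.45 to 142). The receptors, the gene lists and the tests were chosen with earlier results of these data known. Named genes are the receptors, tshr, markers, up to 4 called members of each list per contrast with the largest change, and the 5 genes most correlated with each receptor. A gene that this rule names is not reported here.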

Additional observations from a re-analysis of the deposited data

How the results depend on the processing

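Over 75 results and 431 alternatives, 407 kept their direction and their side of the threshold, among them every alternative of the averaged size steps of both receptors. Population steps of lhcgr at 300um passed in Molino with DESeq2 (3.76), library totals (3.78), only the 2 sizes (3.74) and the replicate block (3.61), and in Surface with DESeq2 (3.18), only the 2 sizes (3.16) and the block (3.17). Pachón against Molino in lhcgr passed at 300um with DESeq2 (-1.45) and library totals (-1.60), and at 40_100um with DESeq2 (2.00), no filter (1.94) and the block (2.26). Pachón against Surface in lhcgr at 40um passed in the fit of all 36 libraries (2.01) and with the block (2.13). In that fit fshr at 40um passed in Molino against Surface (1.60) and in Pachón against Molino (1.33), and at 300um Pachón against Surface in fshr did not pass (1.26), nor did it without the 3 libraries with raised markers (1.11). The difference of the fshr step between populations passed at 100_300um with DESeq2 (adjusted p = 0.00846) and the block (0.0322), and at 40_100um with the block (0.0475). The cause of these changes was not tested. Signs turned, for values that had not passed, in the fshr to granulosa ratio at 300um without nr5a2 (0.27), the lhcgr to granulosa ratio at 100_300um without gsdf (0.10) and the lhcgr to fshr ratio of Pachón against Surface at 40_100um with 1 added (0.037). The block changed no other call. Outside the last step the numbers were not taken as pairs, since a correlation above 0.1 was required of every pair. At each other size step 8 of 9 pairs reached it, and at most 5 of 9 between populations. The lowest and median correlations were 0.0896 and 0.256 at 40_100um, and 0.0386 and 0.381 at 100_300um. At the last step the median was 0.441.

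With each library left out, 664 of 702 fits kept direction and side. The others lie in these ranges: fshr in Pachón against Surface 2.56 to 3.68 at 40um, 2.20 to 3.79 at 40_100um and 1.02 to 1.42 at 300um; Molino against Surface in fshr -4.85 to 0.16 at 40_100um; Pachón against Molino in fshr -0.11 to 0.63 at 100_300um; the fshr step 3.40 to 5.05 at 100_300um in Surface and -0.092 to 0.54 at 300um in Pachón; and the adjusted p of the difference of the fshr step between populations at 40_100um 0.0147 to 0.281. For lhcgr they were 1.95 to 3.13 in Pachón against Surface at 40_100um and -0.025 to 0.63 at 100_300um, -0.35 to 0.32 at 100_300um and -1.86 to -1.12 at 300um in Pachón against Molino, and 3.39 to 3.98 in the Molino step at 300um. Log2 ratios ranged from -1.18 to -0.52 for lhcgr to fshr at 40_100um against 40um, from -0.69 to 0.17 and -0.80 to 0.82 for that ratio in Pachón against Molino at 40um and against Surface at 40_100um, and from -0.47 to 0.17 for lhcgr to granulosa markers at 100_300um against 40_100um. DESeq2 gave no adjusted p for the fshr step at 300um in Pachón. Depth limits both receptors most at 40_100um, with 79 fshr and 169 lhcgr reads over 9 libraries.

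Counts of all genes called moved by over 1.5 times in these comparisons. At 40um they were 458 in Pachón against Surface, 83 in Molino against Surface and 506 in Pachón against Molino, and 4209, 1974 and 3751 in the fit of all 36 libraries, or 1488, 193 and 1117 with the block. At 300um that fit called 2563, 1443 and 2972 genes in the same order, against 4931, 2507 and 5247. The Surface step at 100_300um called 16 to 2113 genes over the alternatives, against 714, the Pachón step there 1087 to 4355, against 1535, the Molino step up to 5413, against 2809, the difference between populations at 40_100um 518 to 3427, against 2013, and at 100_300um up to 94, against 0. At 300um the single-population steps called up to 28 genes in Pachón, 42 in Molino and 73 in Surface, against 0, 1 and 0, and the averaged step 57 to 195, or 43 to 99 with 1 library left out, against 73. With library totals the median gene moved by 0.40 in place of 0.19 at 100_300um, and with DESeq2's size factors by -0.47 in place of -0.32 at 40_100um, while fshr stayed at -5.27 to -5.23 and lhcgr at -6.21 to -6.15 relative to that median.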
